A study of Trichoderma reesei with 6 samples.

Results

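Of the 9126 array features of the filamentous fungus Trichoderma reesei, each standing for 1 gene, 232 had transcripts at least 2-fold higher on glycerol than on lactose and on glucose. Their lactose and glucose levels lay less than 2-fold apart. The 232 genes were chosen by their measured values. The log2 signals of the 2 arrays of each carbon source were averaged, and a gene was taken when its glycerol mean lay at least 1 log2 unit (2-fold) above both the lactose and the glucose mean while the lactose and glucose means lay less than 1 apart. All 6 arrays came from mycelia of QM9414, a single strain that is an early cellulase-producing mutant, in submerged shake-flask culture. Glycerol, lactose or glucose was supplied at 10 g/l, with 2 arrays each. The sample labels give 24 h of growth for glycerol and glucose and 28 h for lactose, whereas the methods give 24 h for every culture. If the labels hold, a difference from lactose cannot be told apart from those hours. The paper also places the profiles in the initial growth phase, after a stated share of the carbon source was used, and describes slower growth on lactose. The methods also describe pregrowth on glycerol before transfer to shake flasks, which would be shared by all 3 groups, without saying whether it applied to the array cultures. The labels speak of duplicate flasks and also of mixing replicate mycelia, so the spread between the 2 arrays of a group may be technical.

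Glycerol is a small polyol that fungi take up and convert to triose phosphates, which enter glycolysis in its lower part. In T. reesei it is commonly used as a carbon source that does not induce the cellulases and represses carbon-regulated genes less than glucose does. Lactose is a slowly used disaccharide that induces cellulases in this fungus, and glucose is the preferred sugar.

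The arrays carried several long oligonucleotide probes for each gene, and the deposited value was 1 log2 signal for each gene and array. The lowest signal was 2.70 and the highest 15.90, with array medians from 10.80 to 10.85. Replicate arrays correlated across features at r = 0.998 for lactose and for glucose and at 0.996 for glycerol, in which genes are not independent replicates. The lactose labels were checked with cel7a, the main cellobiohydrolase. Its log2 signal was 14.23 and 14.22 on lactose, 6.12 and 6.45 on glucose and 7.64 and 7.78 on glycerol. Being far lower on glucose and on glycerol, it does not check those labels against each other. Signals came from bulk mycelium, in which fewer cells expressing a gene and less RNA per cell cannot be told apart. A call of the presence of a transcript was not made, and signals under log2 4.66, the lowest 10% of all values, are called the low end below. Folds against a level at the low end are imprecise, because signals there are not known to follow the amount of RNA.

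Because the rule used the group means of every array, the differences of these genes from lactose and glucose are given as a description. No p-value of a single gene is given for them, and the limma calls that follow are no test of them. All 232 genes passed the thresholds of the limma fit over all features (over 2-fold and Benjamini-Hochberg adjusted p under 0.05) against lactose, where 12.5% of all features were called higher, and all 232 passed against glucose, where 9.07% were called higher. Both contrasts were passed upward by 368 features or 4.03%, and the 136 of these that were not taken had lactose and glucose means at least 1 apart. None of the 232 was called lower than on both, as 3.2% of all features were. Both glycerol arrays lay above the other 4 arrays for all 232, against 17.4% of all features, and the rule all but fixed that order. Lactose and glucose differed at an adjusted p under 0.05 with any fold in 108 of the 232, whereas 62.9% of all features differed, and here the rule kept the difference small. Nothing is read from these counts.

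The glycerol mean exceeded the higher of the lactose and glucose means by a median of 1.37 log2 units, or 2.58-fold. The middle part of the genes, between the quartiles, lay between 1.17 and 1.86, and the whole range was 1.02 to 7.72. The excess was under 1.5 in 133 genes (57.3%), between 1.5 and 2 in 49, between 2 and 3 in 32 and at least 3 in 18, of which 6 reached 4. Most of the genes were thus moderately higher on glycerol, and a small number stood far out. On single arrays, the lower glycerol array exceeded the highest of the other 4 arrays by a median of 1.20, with a smallest gap of 0.60 and a largest of 7.44. This gap was at least 1 in 171 genes and under 1 in 61.

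**Figure D1:**
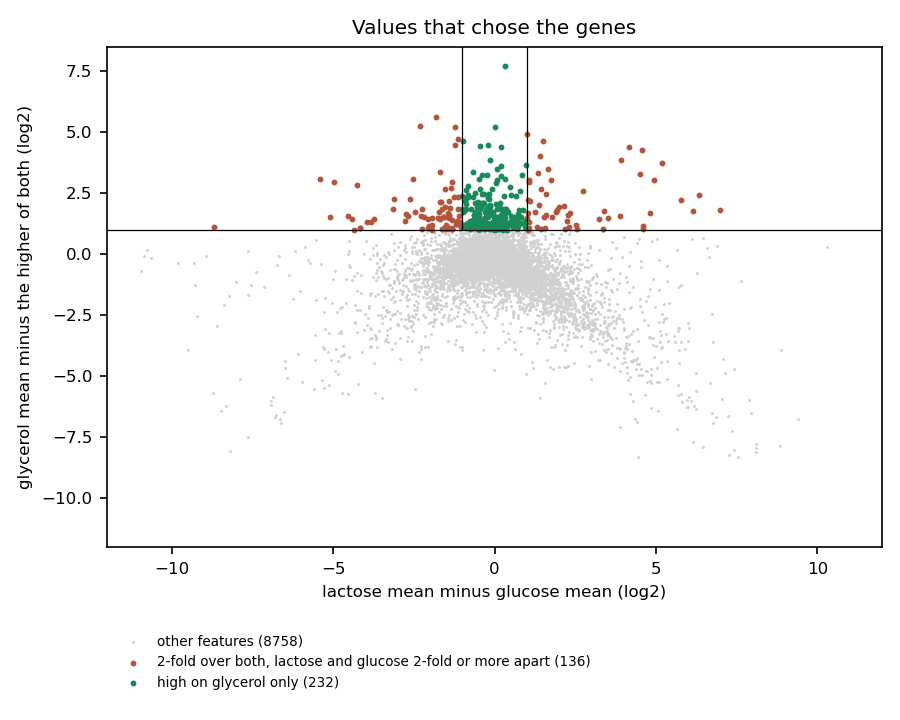
Each point is 1 of the 9126 features, with the lactose mean minus the glucose mean on the x axis and the glycerol mean minus the higher of both on the y axis, in log2 units. The lines mark the thresholds that chose the 232 genes (green), and 136 further features (red) lie as high on the y axis but outside the vertical lines.

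The genes were set off by sharp thresholds in a continuous distribution. Just inside lay Trire2:71039 and Trire2:65782, both with an excess of 1.02. Just outside lay Trire2:122366 with an excess of 0.998 and Trire2:5011 with 0.995. For the difference between lactose and glucose, Trire2:104200 and Trire2:123648 were just inside with -0.994 and -0.996. Trire2:59002 with 1.01 and Trire2:109344 with 1.02 were just outside, and the excess of Trire2:109344 was as large as 4.95.

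The levels of the genes spanned almost the whole range of the array. Their median level was log2 9.25 on lactose, 9.49 on glucose and 11.37 on glycerol, beside medians over all features of 10.84, 10.84 and 10.81. The medians of the group thus lay below those of all features on both sugars and above on glycerol. The rule used these same means and favours that order, so these medians and the shares that follow are a description only. The glycerol means ran from 4.21 to 15.04, with quartiles of 8.58 and 12.82. A glycerol mean above 12 was found in 87 genes (37.5%), against 29.5% of all features, and 13 genes lay above 14. For 35 genes (15.1%, against 7.79% of all features) both the lactose and the glucose mean lay at the low end, and 4 genes were still at the low end on glycerol. These 35 genes had a median excess of 1.85, and the other 197 had one of 1.31. On glycerol the 35 reached levels between 4.21 and 11.35, with a median of 6.01. A gene raised from the low end is described here by its glycerol level rather than by its fold.

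**Figure D2:**
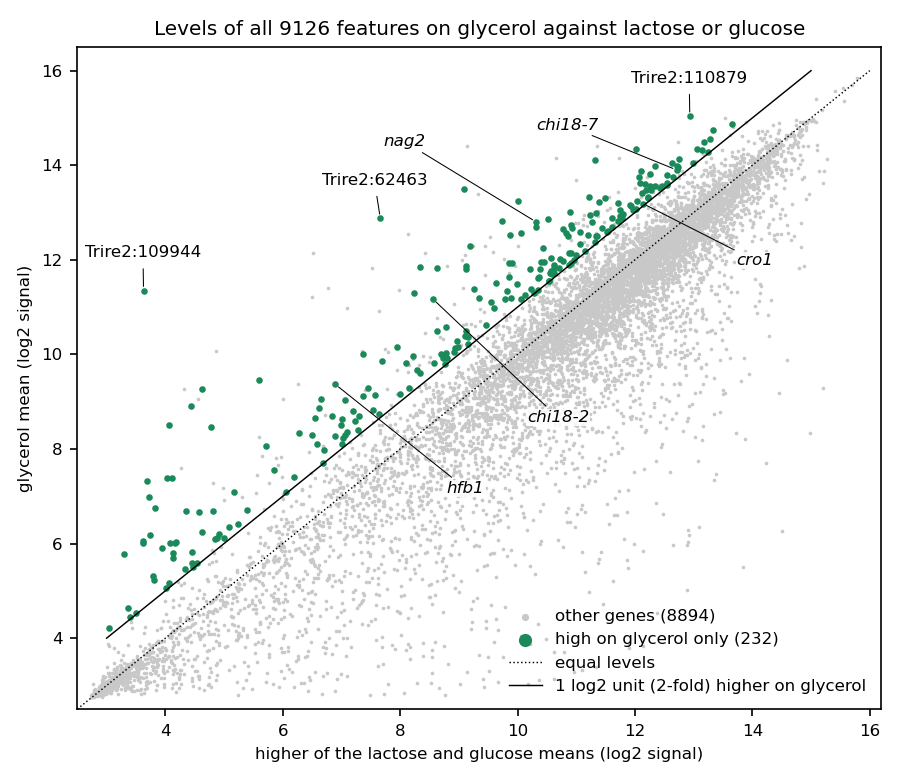
Glycerol mean (y axis) against the higher of the lactose and glucose means (x axis), in log2 signal, for the 232 genes (green) and the other 8894 features (grey). The green points run along the whole 2-fold line, from the low end to glycerol levels near 15, and Trire2:109944 and Trire2:62463 lie farthest above it.

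Replicate arrays of these genes differed about as much as those of other genes on glycerol. The median absolute difference between the glycerol arrays was 0.18 log2 units for the 232 genes and 0.17 for all features. It was 0.13 against 0.12 on lactose and 0.15 against 0.13 on glucose. Glycerol array 1 was the higher in 115 genes and array 2 in 117, so neither array carried the group. The arrays lay over 0.5 apart in 27 genes, and most widely in Trire2:26160, with 5.66 and 6.82, and in Trire2:60067, with 11.07 and 10.17. Trire2:106939 had 5.08 and 5.94. In these 3 genes, as in all 232, the lower glycerol array lay above the other 4 arrays. The rule all but fixed that order.

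Between lactose and glucose the means lay less than 1 apart by the rule. The glucose mean was the higher in 136 genes and the lactose mean in 96, with a median difference of -0.14 for lactose minus glucose. The same count was not made over all features, so no lean of the group is read from it. The means lay within 0.25 of each other in 83 genes and at least 0.5 apart in another 83.

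**Figure D3:**
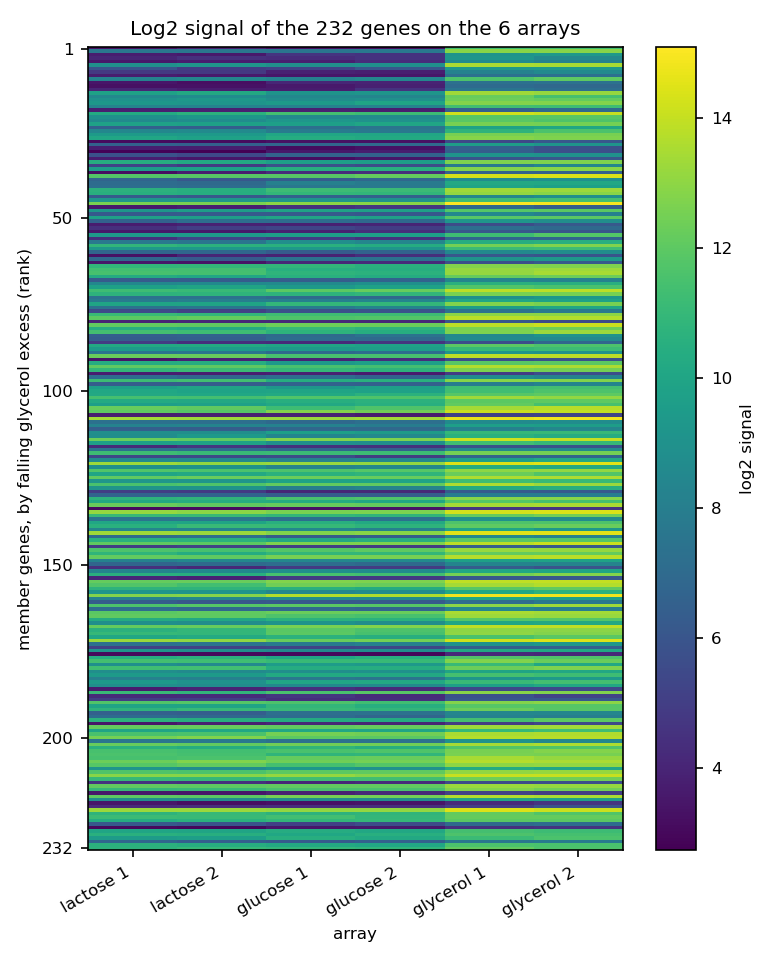
Log2 signal (colour) of the 232 genes (rows, ordered from the largest to the smallest excess on glycerol) on the 6 arrays (columns). The glycerol columns are brighter in every row, and dark rows on lactose and glucose are found at all ranks.

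RefSeq gave a symbol to 5 of the 232 genes, as it did to 235 of the 9126 features. They were chi18-2, chi18-7, nag2, hfb1 and cro1, and 3 of the 5 encode enzymes of chitin breakdown. Of all 235 features with a symbol, 20 had a chitinase or N-acetylglucosaminidase symbol. Chitin is the N-acetylglucosamine polymer that stiffens the fungal cell wall. Chitinases of glycoside hydrolase family 18 cut its chains, and N-acetylglucosaminidases release the sugar units from the fragments. The other 227 genes carried no symbol and are named by their Trire2 protein numbers, with no role given.

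The chitinase gene chi18-2 (Trire2:59082) had log2 signals of 8.45 and 8.67 on lactose, 7.87 and 7.71 on glucose and 10.76 and 11.58 on glycerol. Its glycerol arrays differed by more than those of most of the 232 genes, and both lay above the other 4, as in all 232. The means were 2.61 ± 0.24 (limma SE, n = 2) above lactose and 3.38 ± 0.24 above glucose, or 6.09-fold and 10.4-fold. The N-acetylglucosaminidase gene nag2 (Trire2:23346) gave 10.05 and 9.83 on lactose, 10.38 and 10.26 on glucose and 12.87 and 12.73 on glycerol. It gave a clear signal on every carbon source and was 7.27-fold higher on glycerol than on lactose and 5.60-fold higher than on glucose. A further chitinase gene, chi18-7 (Trire2:81598), had 12.18 and 12.23 on lactose, 12.61 and 12.82 on glucose and 13.90 on both glycerol arrays. Its folds were smaller, at 3.24 over lactose and 2.28 over glucose.

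The remaining chitin genes did not share the pattern. A list of 20 genes with chitinase or N-acetylglucosaminidase symbols was drawn up after the members had been seen, so it describes and supports nothing. In it 3 genes (chi18-2, chi18-7 and nag2) were called higher on glycerol than on both, as 4.03% of all features were. Another 2 were called lower than on both, as 3.2% of all features were. The low end on all 3 carbon sources held 5 of the 20, against 664 of all 9126 features. Over the 20 genes the median difference of glycerol was 0.03 from lactose and 0.04 from glucose, beside 0.05 and -0.03 over all features. The paralogue nag1, the other N-acetylglucosaminidase gene, had 10.59 and 10.48 on lactose, 10.55 and 10.24 on glucose and 10.70 and 10.40 on glycerol, and its groups overlapped. For chi18-12 the signal on glycerol was 3.13 on both arrays, below 4.72 and 3.91 on lactose and 6.52 and 6.43 on glucose. For chit18-11 it was 4.95 and 5.01, below 6.28 and 6.33 on lactose and 6.53 and 6.44 on glucose. The nearest to the threshold among the others was chi18-4, which was 0.80 above lactose and 0.56 above glucose.

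**Figure D4:**
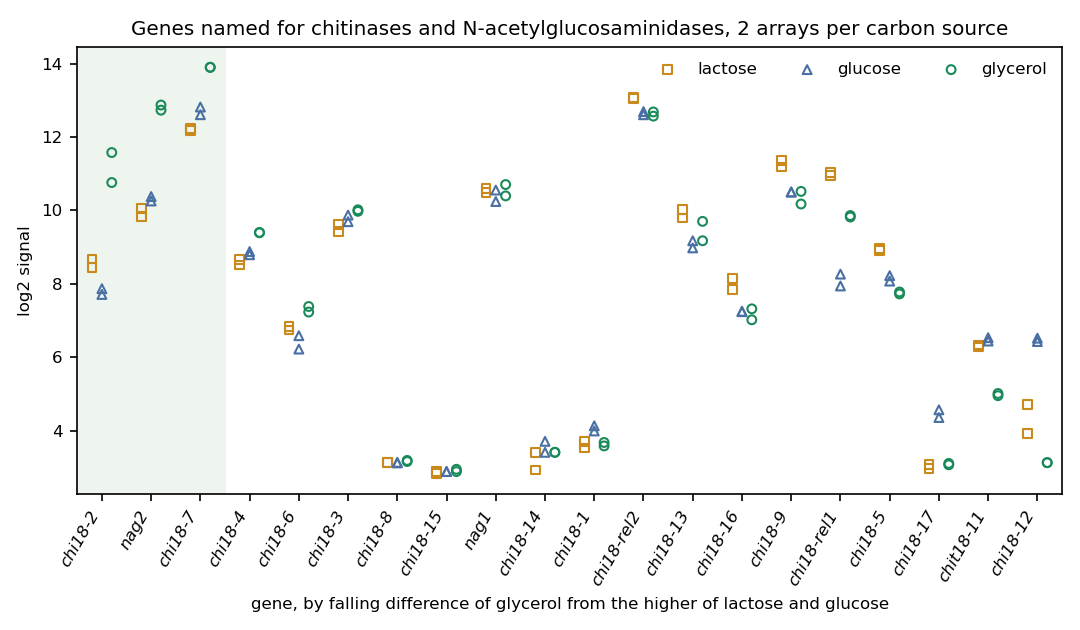
Log2 signal (y axis) of the 20 genes with chitinase or N-acetylglucosaminidase symbols (x axis, ordered by the difference of glycerol from the higher of lactose and glucose), with 1 marker for each of 2 arrays per carbon source. The shaded genes chi18-2, nag2 and chi18-7 have both glycerol markers above the rest, while chit18-11 and chi18-12 at the right have them below.

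The gene hfb1 (Trire2:73173) encodes a class II hydrophobin, one of the small secreted proteins that assemble at the surface of hyphae and make it water-repellent. Its log2 signal was 6.61 and 6.53 on lactose, 6.79 and 7.0 on glucose and 9.61 and 9.13 on glycerol, so both glycerol arrays lay above the rest by at least 2.13. The means were 2.79 ± 0.17 (limma SE, n = 2) above lactose and 2.47 ± 0.17 above glucose. The other hydrophobin genes of the list were low on glucose only. hfb2 had 13.74 and 13.66 on lactose, 6.72 and 7.54 on glucose and 13.95 and 13.97 on glycerol, and hfb3 had 13.76 and 13.67, 3.15 and 3.71, and 14.02 and 13.99 in the same order. From lactose, glycerol differed by 0.26 for hfb2 (limma adjusted p = 0.37) and by 0.29 for hfb3 (adjusted p = 0.196), and the difference between these genes and hfb1 was not tested.

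Of the genes with a symbol, cro1 (Trire2:124282) had the smallest excess, 1.06. It gave 12.13 and 12.04 on lactose, 12.13 on both glucose arrays and 13.23 and 13.15 on glycerol, with little spread in any group. The fold was 2.15 over lactose and 2.08 over glucose.

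The gene gld1 was not among the 232, nor were gpd1 and lxr1. These 3 genes formed the list for glycerol use, in which the place of each is uncertain. None was called higher on glycerol than on both sugars, against 4.03% of all features. gld1 had lower signals on glycerol than on either sugar, with 11.08 on both arrays, against 11.93 and 11.96 on lactose and 11.97 and 12.25 on glucose. Its difference was -0.86 from lactose (limma adjusted p = 0.00049) and -1.03 from glucose (adjusted p = 0.000276), and the groups did not overlap. lxr1 was 0.87 above lactose and 1.98 above glucose, which missed the rule against lactose. gpd1 differed by 0.35 and 0.06. Lists of 3 genes of glycolysis and 2 of the glyoxylate cycle and acetate use held no gene called higher on glycerol than on both. Neither did lists of 10 regulators, 12 genes of G protein and cAMP signalling and 16 cellulase and hemicellulase genes. Of all features 4.03% were so called, and nothing is read from the absence of such a gene in lists this short. Of the 16 cellulase and hemicellulase genes, 12 were called lower on glycerol than on lactose, as 14.6% of all features were. Of these lists it held 2 genes, cel1a and cel1b, called lower than on both, as 3.2% of all features were. Over all 235 genes with a symbol, 5 were called higher and 4 lower than on both, beside 4.03% and 3.2% of all features. The median differences of the 235 from lactose and glucose were 0.09 and -0.01.

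The largest excess belonged to Trire2:109944, a gene of 474 bp. Its log2 signal was 3.36 and 3.89 on lactose, 3.34 and 3.25 on glucose and 11.36 and 11.34 on glycerol. It thus went from the low end to a level above the array median, with a nominal fold of 211 over lactose and 266 over glucose. The next was Trire2:62463, with 7.66 on both lactose arrays, 7.57 and 7.75 on glucose and 12.90 and 12.86 on glycerol. Here the comparison levels lay far above the low end, and the difference was 5.22 ± 0.12 (limma SE, n = 2) from lactose and from glucose, or 37.3-fold for each. Trire2:68924 was similar, with 8.95 and 9.23 on lactose, 8.83 and 8.93 on glucose and 13.52 and 13.46 on glycerol. It was 21.1-fold and 24.4-fold higher on glycerol than on lactose and glucose.

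Of the 10 genes with the largest excess, 5 lay at the low end on both sugars. Trire2:68466 had 3.74 and 3.57 on lactose, 4.66 and 4.58 on glucose and 9.14 and 9.39 on glycerol. Trire2:105150, a gene of 267 bp, had 4.03 and 4.46, 4.31 and 4.56, and 9.24 and 8.60 in that order. Trire2:104181 had 3.53 and 3.71, 3.80 and 4.32, and 8.75 and 8.26. Each of these 3 genes lay at the low end on lactose and glucose, and no glycerol array came near another group. For Trire2:30758 the change was from 3.71 and 3.65 on lactose and 3.47 and 3.5 on glucose to 7.35 and 7.29 on glycerol. In Trire2:103062 only glucose lay at the low end, with 3.86 and 3.76, beside 4.78 on both lactose arrays and 8.25 and 8.67 on glycerol. In Trire2:120968 the replicates on both sugars were the least alike, with 5.93 and 4.98 on lactose and 5.14 and 6.06 on glucose, while glycerol gave 9.44 and 9.48. The last of the 10, Trire2:123673, lay above the low end on every array, with 8.23 and 8.46, 8.12 and 8.39, and 11.65 and 12.05, and was 11.4-fold and 12.1-fold higher.

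At the upper end of the levels, Trire2:110879, a short gene of 341 bp, had the highest glycerol mean. It gave 12.61 and 12.63 on lactose, 12.95 and 12.91 on glucose and 15.10 and 14.97 on glycerol, 5.34-fold and 4.30-fold higher. Trire2:60676 followed with 14.88 and 14.84 on glycerol, against 12.83 and 12.86 on lactose and 13.70 and 13.61 on glucose. Trire2:121800 had 14.67 and 14.82 on glycerol, 13.40 and 13.27 on lactose and 13.22 and 13.40 on glucose. These were strong signals on all 3 carbon sources, and glycerol added to them. Trire2:73048 had 14.56 and 14.54 on glycerol with folds of 2.41 and 3.31, and Trire2:51650 had 14.44 and 14.54 with folds of 2.49 and 2.53. At the lower end, Trire2:109338 had 3.04 on both lactose arrays, 3.05 and 2.96 on glucose and 4.23 and 4.18 on glycerol. Trire2:110712 (4.22 and 4.66 on glycerol), Trire2:110749 (4.45 and 4.61) and Trire2:121058 (4.63 and 4.66) likewise stayed at or near the low end, and Trire2:106480 reached 5.18 and 4.93. Such genes met the rule by a small signal over a smaller one.

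A large excess was found at high and at low levels. Of the 50 genes with an excess of at least 2, 15 had a glycerol mean above 12, beside 87 of all 232 (37.5%). At the low end on both sugars, where folds are imprecise, lay 15 of the 50, beside 35 of all 232 (15.1%). The median excess was 1.29 in the 87 genes above 12 and 1.39 in the 145 others. The genes were somewhat shorter than the rest. Their median length in the RefSeq annotation was 1344 bp, against 1503 bp over the 9094 features with a length, and ranged from 204 to 6348 bp. The 50 genes with the largest excess had a median of 1204 bp and the other 182 one of 1430.5 bp.

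The position of the genes was not used in choosing them. All 232 had a place in the gene order of the RefSeq annotation of T. reesei QM6a, the parent wild type of the laboratory strains, and they lay on 39 of its 62 sequences as these were told apart by their gene order. 34 of the 232 genes (14.7%) lay directly beside another of the 232, in 14 pairs and 2 runs of 3. Of the 460 places next to a gene of the group, 36 (7.83%) were held by the group, whereas the group made up 2.54% of all features. The same count was made for 3 other patterns cut by the same thresholds. Neighbours of their own pattern were found for 55 of 281 genes high on glucose only (19.6%), 195 of 719 high on lactose only (27.1%) and 24 of 187 low on glycerol only (12.8%). The share of places held was 10.8%, 15.4% and 6.99% in these patterns, which made up 3.08%, 7.88% and 2.05% of all features. Neighbours were thus found in every pattern, and no test of adjacency was made.

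Neighbours within a run lay 165 to 3236 bp apart, with a median of 897.5 bp. One run of 3 began with the chitinase gene chi18-2, followed by Trire2:58389 and Trire2:73048. Trire2:58389 had 11.21 and 11.34 on lactose, 10.43 and 10.59 on glucose and 12.85 and 12.74 on glycerol. The excess over the higher sugar was 2.61 for chi18-2, 1.52 for Trire2:58389 and 1.27 for Trire2:73048. The gene before chi18-2, Trire2:58475, had 5.57 and 5.72 on lactose, 4.50 and 4.57 on glucose and 7.57 and 8.13 on glycerol. It was 2.21 above lactose and was left out of the group only because lactose and glucose lay 1.11 apart. The other run of 3 was Trire2:108543, Trire2:35552 and Trire2:63568. Trire2:108543 had log2 signals of 11.78 and 11.89 on lactose, 11.87 and 12.17 on glucose and 14.30 and 14.40 on glycerol. Trire2:35552 had 6.76 and 6.12, 6.35 and 6.87, and 8.73 and 9.01 in that order, and Trire2:63568 had 9.18 and 9.13, 8.47 and 8.69, and 10.12 and 10.62. As in all genes chosen by the rule, no glycerol array of these 3 overlapped another carbon source. On both sides the run was bordered by genes that did not share the pattern.

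Beside nag2 lay Trire2:111818, with 6.39 and 6.41 on lactose, 6.64 and 6.54 on glucose and 7.92 and 8.30 on glycerol. On the other side of nag2, Trire2:82032 had 10.69 and 10.95, 12.21 and 12.27, and 13.81 and 13.86. It was 1.59 above glucose, but it also separated glucose from lactose by 1.42 and so did not belong to the 232. Among the pairs, Trire2:68585 stood next to Trire2:68466, a gene named above for its large excess, and had 3.78 and 3.71 on lactose, 3.15 and 3.33 on glucose and 6.59 and 5.75 on glycerol. Trire2:120363 and Trire2:38274 were 400 bp apart and were 6.23-fold and 3.32-fold over glucose. Trire2:106229 and Trire2:76971, the closest pair, were 165 bp apart and were 2.98-fold and 4.31-fold over lactose.

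Some neighbours were excluded only by the rule for lactose and glucose. When every gene at least 1 higher on glycerol than on both was counted as a neighbour, whatever its lactose and glucose levels, 59 of the 232 genes (25.4%) lay beside such a gene. This count was added after the neighbours had been seen. It cannot fall below the narrower count, because more genes count as neighbours. Such genes made up 4.03% of all features and held 132 of the 730 places next to one of them (18.1%). Among all 368 such genes 115 (31.2%) lay side by side in 49 runs, of which 12 held 3 genes or more, and the longest held 5. That run of 5 was Trire2:58698, Trire2:76620, Trire2:58584, Trire2:58356 and Trire2:121107, of which the 2nd and the last belonged to the group. Trire2:76620 had 10.28 and 10.68 on lactose, 11.40 and 11.23 on glucose and 14.23 and 14.00 on glycerol, and Trire2:121107 had 11.52 and 11.45, 10.80 and 10.67, and 13.14 and 13.47. The genes between them were also above both sugars on glycerol, by 1.76 for Trire2:58584 and by 1.13 for Trire2:58356, with lactose 3.38 and 2.31 above glucose. The run thus shared a high glycerol level and differed in the order of the sugars.

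In a run of 4, Trire2:58550, Trire2:120923, Trire2:46443 and Trire2:46446, all but Trire2:120923 were of the group. Trire2:120923 itself had an excess of 5.64, with 4.39 and 4.98 on lactose, 6.58 and 6.45 on glucose and 12.16 and 12.14 on glycerol. Of its neighbours, Trire2:46443 reached 12.70 on both glycerol arrays, against 10.43 and 10.20 on lactose and 9.72 and 9.60 on glucose. Another run of 4 held Trire2:53053 of the group, with 9.81 and 10.20 on lactose, 9.08 and 9.20 on glucose and 13.34 and 13.16 on glycerol. The 3 genes around it, Trire2:54768, Trire2:44362 and Trire2:103112, were 1.76, 4.05 and 3.38 above the higher sugar, and lactose minus glucose was 6.16, 1.41 and -1.68 for them. These runs and genes were picked out after their values had been seen. The 413 genes beside the group that were not of it had a median excess of -0.16, against -0.24 for all features, and glycerol was above both sugars in 164 of them (39.7%), against 28.6% of all features.

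**Figure D5:**
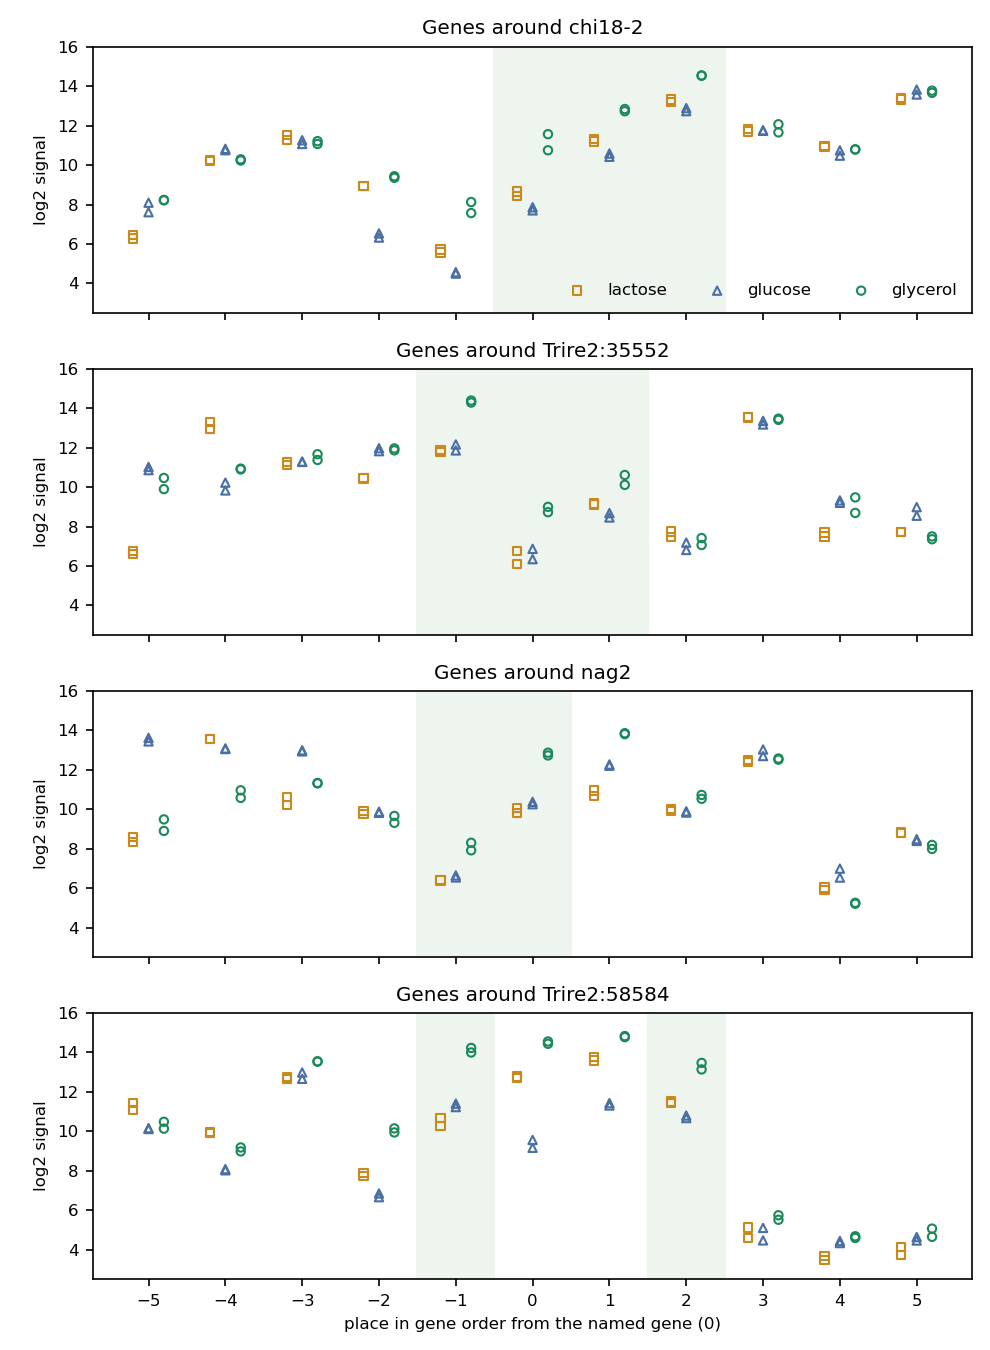
Log2 signal (y axis) of genes around chi18-2, Trire2:35552, nag2 and Trire2:58584, placed by gene order (x axis, with 0 for the named gene), with 1 marker for each of 2 arrays per carbon source. Shaded places are genes of the group of 232, and unshaded places at -1 from chi18-2, at 1 from nag2 and at -2, 0 and 1 from Trire2:58584 also have a glycerol mean at least 1 above both sugars.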

How the data were processed

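Each of 6 single-colour arrays, 2 for each carbon source, gave 1 log2 value per gene, which the authors deposited. These were summarised by RMA according to the submitters' processing notes, with no version stated. How background was corrected and arrays were normalized is not given in the sources used here. A deposited table of averages holds log2 means, which equal those computed here within 5e-06, and the authors' own fold changes, p-values and F statistics, which were not used. The number of unused columns of values per array was 0. The 232 genes were found from the means of the deposited log2 values, with no filter on low signal. A single limma 3.58.1 fit in R 4.3.3 covered the 3 groups and 9126 features, with 3 residual and 5.10 prior degrees of freedom and Benjamini-Hochberg adjustment over all features (the small number of arrays limits precision). The fit was tested on simulated data. P-values measure only the spread between the arrays of a group, which may be technical. Groups came from the sample labels.

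The genes and lists were chosen with earlier results of these data known. Genes were named if they had a symbol, were among the 10 largest excesses, the 5 highest or the 5 lowest on glycerol, lay just inside or outside a threshold, were in runs of 3, or were among the 3 with the widest glycerol arrays. Other genes were chosen after their values were seen. Symbols, lengths and gene order came from the RefSeq table of the QM6a v2.0 assembly through the protein number, which matched 9094 features. Sequences starting anew in that order were taken as separate. Protein similarity, promoters and probe sequences were not analysed here. Alternatives were thresholds of 0.58 and 2 for the excess and of 0.5 between the sugars, further quantile normalization, median centring, leaving out dim genes, leaving out each array, separate and robust fits, and the replicate number as a block. Python 3.11.15 with numpy 2.4.6, pandas 2.3.3 and matplotlib 3.10.9 was used for counts and figures.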

Additional observations from a re-analysis of the deposited data

How the results depend on the processing

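The number of genes depended on the thresholds that define them. It was 450 with an excess of at least 0.58, 50 with one of at least 2, 149 with lactose and glucose less than 0.5 apart and 149 without the dimmest 25% of genes, in place of 232. Further quantile normalization gave 236 genes (219 of them shared with the 232), median centring 245 (232 shared), and a gap of at least 1 between every glycerol array and every other array 171. Leaving out 1 array at a time gave 224 to 243 genes, of which 213 to 227 were shared. The number past the limma thresholds in both contrasts stayed at 232 with the replicate block, robust and separate fits and an adjusted p under 0.01. It was 228 after quantile normalization. These contrasts are those of the rule, and the block leaves the folds unchanged, so nothing is read from this number. Same-numbered arrays deviated together with r = -0.01 (lactose with glucose), -0.14 (lactose with glycerol) and 0.07 (glucose with glycerol), so the numbers were not taken as pairs, and exchanging the glycerol numbers in the replicate block, added after seeing the data, again gave 232. The median excess of the 232 genes, 1.37, was 1.42 after quantile normalization, 1.40 after median centring and 1.34 to 1.40 with 1 array left out. Genes beside another of the group numbered 62 with up to 2 genes between them and 59 when neighbours of any lactose to glucose difference counted, in place of 34. Of the 36 genes of the group named by the stated rules, 8 fell under an excess of 1 in at least 1 setting (Trire2:106480, Trire2:106939, Trire2:110712, Trire2:110749, Trire2:60067, Trire2:63568, Trire2:65782 and Trire2:71039), and none turned its direction. Genes named in the text for other reasons were not put through these settings. Levels at the low end on lactose or glucose limit the folds of 41 genes, of which 35 lay there on both.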
